A study of Mus musculus with 43 samples.

Results

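Claudins and their tight junction partners were followed in RNA sequencing of mouse colon organoids. The set held 10 named genes of the 52636 in the organoid table: the claudins Cldn1, Cldn2, Cldn3, Cldn4, Cldn7, Cldn15 and Cldn23, occludin (Ocln), junctional adhesion molecule A (F11r) and the scaffold ZO-1 (Tjp1). Members were taken by gene symbol, without use of any measured value, and all 10 were found once. The libraries came from 24 cultures of 6 lines, each line from an individual adult mouse. Colonoids (lines M41, M40 and M1) were grown from Vil-cre/ERT2/Apcwt/wt mice and tumoroids (lines F11, M3 and M14) from Vil-cre/ERT2/Apcflox/flox mice, in which tamoxifen given in vivo activates a Cre driven by the villin promoter in intestinal epithelium. Each line was cultured in Matrigel for 6 days with vehicle (0.5% DMSO), 4 µM regorafenib (R4), 8 µM regorafenib (R8) or 1 µM 5-fluorouracil (5-FU). Regorafenib is a multi-kinase inhibitor, and 5-FU is an antimetabolite that blocks thymidylate synthesis. Of the tumoroid cultures, the 3 given 5-FU carry the word colonoid in their titles but Apc deficient as genotype, and the genotype was followed.

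Tight junctions seal the space between neighbouring epithelial cells near their apical side. Claudins are small proteins with a tetraspan fold that form the strands of the junction. Some claudins, such as Cldn3, Cldn4 and Cldn1, mainly tighten the barrier, whereas Cldn2 and Cldn15 form pores for small cations and water. Occludin spans the membrane beside the claudins, F11r is an immunoglobulin-type adhesion molecule that helps to place the junction, and ZO-1 ties strand proteins to the actin cytoskeleton. In the colon the members differ along the crypt, and Cldn7 also lines the lateral membrane.

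Values are given as CP20M, the reads of a gene scaled to 20000000 reads per library, so that 20 CP20M is 1 CPM. Recovered depth ran from 512592 to 22370021 reads per library. The lowest depth was that of the M41 colonoid library at R4, where 1 read is worth 39.0 CP20M against at most 4.58 CP20M in any other library, so results that rest on it are given with and without it. General epithelial markers were high in all cultures: Epcam lay between 6087 and 18200 CP20M and Vil1, which encodes villin, between 4283 and 14093 CP20M. Of the same list of 9, Krt8, Krt18, Krt19 and Cdh17 did not fall below 2688 CP20M. Krt20, Cdx2 and Cdx1 went down to 5, 290 and 0 CP20M. The sum of 8 fibroblast markers stayed between 12 and 123 CP20M in the 24 libraries, with Lum at 0 in all of them, and that of 3 endothelial markers at no more than 79 CP20M. The sum of 4 immune markers ran from 35 to 2661 CP20M, with Cd68 at up to 2659 CP20M and Ptprc at no more than 7. Apc itself was counted at 1542 to 4944 CP20M in the 12 colonoid libraries and at 3813 to 6032 CP20M in the 12 tumoroid libraries, and because gene-level counts include exons outside the excised part, they cannot check the deletion.

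Cldn4 was the most abundant member and Cldn1 and Cldn15 were close to absent. To compare genes, counts were divided by exon length (CPM per kb). In vehicle-treated colonoids Cldn4 stood at 687 ± 49.1 CPM per kb (SD, n = 3 lines), Cldn3 at 343 ± 25 and Cldn7 at 235 ± 10.6. F11r followed at 156 ± 8.03 CPM per kb. These 4 did not overlap between lines, and each was above every lower member in all 3 lines. Tjp1 at 59.1 ± 16 and Ocln at 42.4 ± 6.81 CPM per kb overlapped, with the highest Ocln line at 49.2 and the lowest Tjp1 line at 49.1. Cldn23 (6.52 to 19.0 CPM per kb) and Cldn2 (9.9 ± 1.87) also overlapped. Cldn15 was at 0.8 ± 0.573 and Cldn1 at 0.11 ± 0.103 CPM per kb.

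In vehicle-treated tumoroids Cldn4, Cldn3 and Cldn7 were again the highest, in that order in lines M3 and M14 but nearly level in line F11. Cldn4 was at 390 ± 256 CPM per kb (SD, n = 3 lines), with line F11 at 164, line M3 at 338 and line M14 at 668. Cldn3 was at 214 ± 42.5 and Cldn7 at 173 ± 7.32 CPM per kb. F11r at 135 ± 18.4 and Tjp1 at 76.1 ± 14.5 CPM per kb were next. Ocln at 24.9 ± 4.68, Cldn2 at 11.7 ± 1.97 and Cldn23 at 2.01 ± 1.11 CPM per kb closed the order above Cldn15 and Cldn1, which were at 1.31 ± 2.09 and 0.0895 ± 0.0761.

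**Figure D1:**
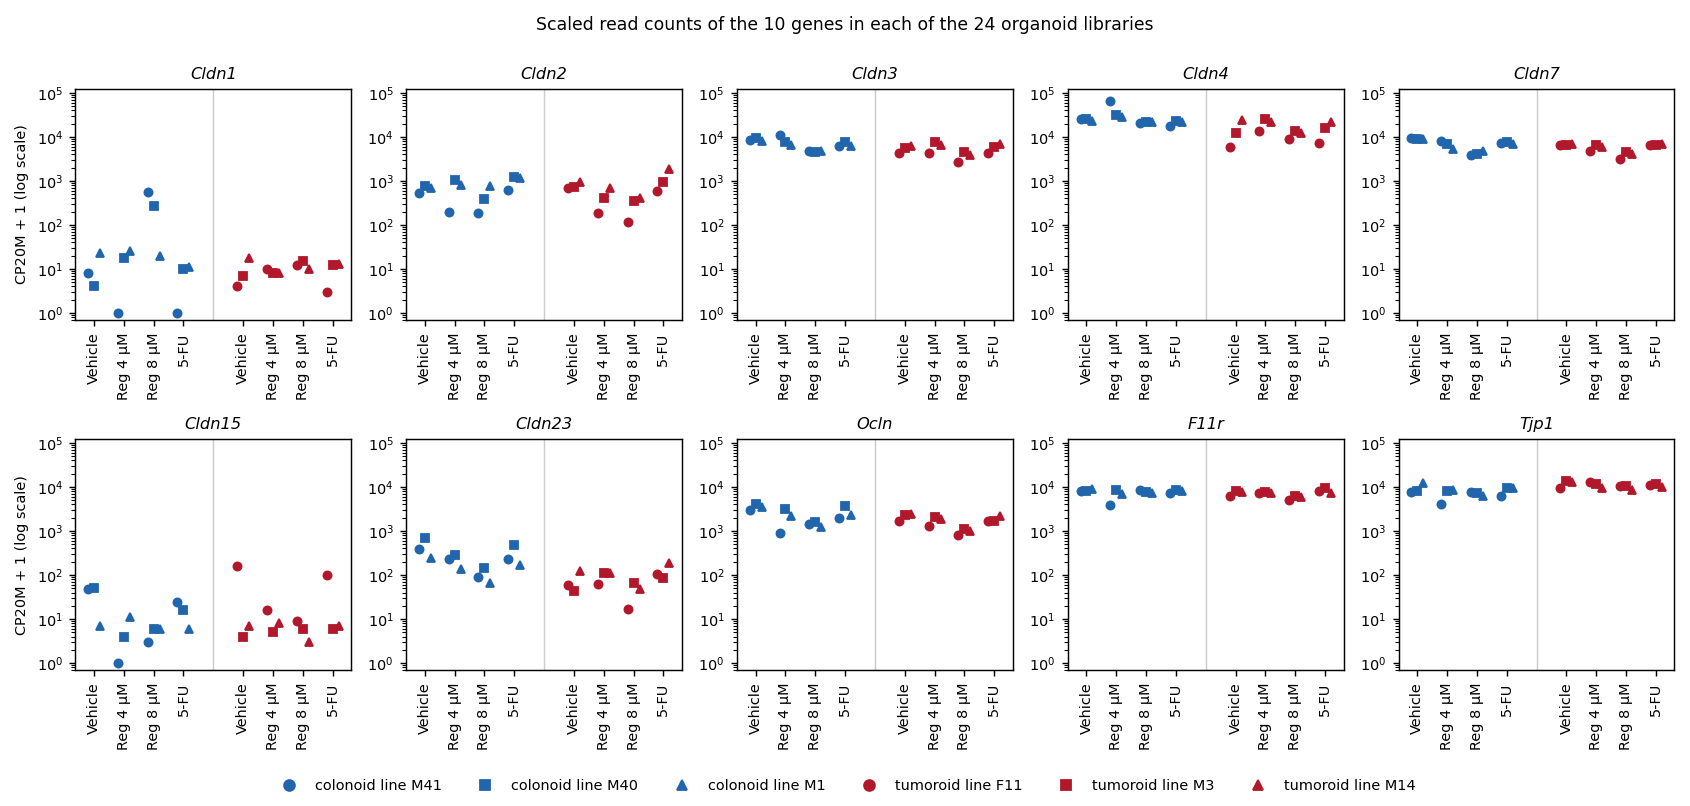
Each panel plots 1 gene in the 24 organoid libraries as CP20M + 1 on a log axis, with colonoids in blue on the left, tumoroids in red on the right and the symbol giving the line. Cldn4 ranges from 5969 to 65315 CP20M, Cldn1 stays at or below 24 CP20M outside 2 colonoid libraries at R8, and Cldn15 never exceeds 158 CP20M.

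All 10 genes are placed on GRCm38 by the GENCODE annotation, and those whose level is discussed most lie as follows. Cldn4 is a single-exon gene on chromosome 5 (134945119 to 134946934, minus strand) and Cldn3 a single-exon gene close by on the same chromosome (134986214 to 134987472, plus strand), where the antisense gene Wbscr25 overlaps it, so that without a stated strand setting reads of the pair cannot be told apart. Cldn7 lies on chromosome 11 (69964779 to 69967885, plus strand), Ocln on chromosome 13 (100496507 to 100552718, minus strand), Cldn2 on chromosome X (139800828 to 139811386, plus strand) and Cldn23 on chromosome 8 (35824712 to 35826559, minus strand). The promoter windows of Cldn2, Cldn3, Cldn4, Cldn7 and Ocln are shown because the levels of these genes are described most below. They are RefSeq sequences of GRCm38.p6, 250 bases before to 50 bases after the annotated start, read 5′ to 3′ on the strand of the gene, at chr5:134985964-134986263 for Cldn3, chr5:134946885-134947184 for Cldn4, chr11:69965171-69965470 for the second of 2 Cldn7 starts, chr13:100552669-100552968 for the first of 2 Ocln starts and chrX:139800558-139800857 for Cldn2. Capitals mark 4 motifs searched on both strands: the E-box, which reads CACCTG or on the other strand CAGGTG, the CDX motif, which reads TTTATG or on the other strand CATAAA, the TEAD motif, which reads GGAATG or on the other strand CATTCC, and the AP-1 motif, which reads TGANTCA on either strand. The 4 motifs do not overlap each other in these windows.
Cldn3: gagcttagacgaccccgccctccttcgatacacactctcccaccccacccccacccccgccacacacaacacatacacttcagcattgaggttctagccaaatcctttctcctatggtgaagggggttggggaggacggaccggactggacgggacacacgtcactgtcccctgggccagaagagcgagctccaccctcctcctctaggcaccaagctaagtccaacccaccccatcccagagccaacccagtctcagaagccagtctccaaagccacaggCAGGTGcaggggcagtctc
Cldn4: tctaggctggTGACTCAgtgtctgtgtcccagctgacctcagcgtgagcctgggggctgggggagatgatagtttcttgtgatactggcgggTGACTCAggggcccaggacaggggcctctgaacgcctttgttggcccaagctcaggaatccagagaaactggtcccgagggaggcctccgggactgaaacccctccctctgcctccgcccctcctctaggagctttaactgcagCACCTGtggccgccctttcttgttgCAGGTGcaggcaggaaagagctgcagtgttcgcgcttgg
Cldn7: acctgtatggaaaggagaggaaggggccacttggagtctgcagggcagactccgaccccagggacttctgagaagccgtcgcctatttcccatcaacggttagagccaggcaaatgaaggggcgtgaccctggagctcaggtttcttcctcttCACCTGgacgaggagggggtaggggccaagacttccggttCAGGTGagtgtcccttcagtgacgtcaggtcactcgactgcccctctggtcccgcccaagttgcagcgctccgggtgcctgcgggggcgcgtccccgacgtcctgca
Ocln: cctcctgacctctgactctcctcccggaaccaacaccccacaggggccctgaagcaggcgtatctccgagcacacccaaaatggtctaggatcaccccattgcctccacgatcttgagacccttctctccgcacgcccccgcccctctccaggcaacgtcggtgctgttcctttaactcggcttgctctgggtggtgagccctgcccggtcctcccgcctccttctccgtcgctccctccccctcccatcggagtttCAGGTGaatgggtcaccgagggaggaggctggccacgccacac
Cldn2: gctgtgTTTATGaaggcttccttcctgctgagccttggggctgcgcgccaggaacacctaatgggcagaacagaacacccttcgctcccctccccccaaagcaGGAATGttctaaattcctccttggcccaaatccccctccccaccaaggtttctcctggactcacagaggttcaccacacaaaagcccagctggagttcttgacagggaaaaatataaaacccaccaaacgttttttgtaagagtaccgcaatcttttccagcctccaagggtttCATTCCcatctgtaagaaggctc

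The E-box was present in windows of 5 of the 9 members that the promoter table holds, Cldn3, Cldn4, Cldn7, Ocln and F11r, and in 20.2% of all 32851 windows. The members are counted per gene, with 11 windows between them, and the 20.2% per window, so the shares differ in unit. Cldn4 held it at positions -14 and 12 from the start, and the Cldn7 window shown at -97 and -57. Cldn3 and Ocln each held 1 copy in the window shown, at 32 and 8. F11r held it at -122 and the second Ocln window at -213 and -68, and the first Cldn7 window held none. The 2 Ocln windows overlap, and the copy at -213 in the second is the copy at 8 in the first. The Cldn2 window held the CDX motif at -244, which is in 11.9% of all windows, and the TEAD motif at -147 and 28, which is in 14.7%. TEAD letters also stood at -70 in the first Cldn7 window and at -237 and -1 in Cldn15. AP-1 letters stood at -240 and -158 in Cldn4, at -109 in F11r and at -214 in Cldn15, and are in 7.81% of all windows. None of the 4 motifs was in the windows of Cldn1 or Tjp1. These are matches of letters and not measured sites, and the motifs were chosen after the expression results were known.

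The comparisons below used log2(CP20M + 20) in limma with Benjamini-Hochberg adjustment over all genes tested, which understates changes of low genes. A gene was tested where at least 2 libraries of the fit reached 200 CP20M. By this rule 9 of the 10 members were tested and Cldn15 was not. Cldn1 passed only through 2 colonoid libraries at R8, and Cldn23 reached 200 CP20M in 5 of the 18 libraries with vehicle or regorafenib, all of them colonoid (3 in vehicle and 2 at R4). A gene is said to rise or fall at an adjusted p under 0.05, and the stricter thresholds of the study for genotype and regorafenib are given beside it.

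The first question was how loss of Apc bears on the junction genes without drug. Cldn23, a claudin known from the surface epithelium of the colon, was the 1 member that differed at an adjusted p under 0.05, and it was lower in tumoroids. Since it was tested only through colonoid libraries, where it is high, its difference is a description of its level. It was at 398 CP20M in line M41, 704 in M40 and 241 in M1, against 59 in F11, 43 in M3 and 121 in M14. The groups did not overlap, and the log2 fold change was -2.27 (SE 0.459, limma adjusted p = 0.0268, 0.207-fold). It did not pass the study's threshold for this comparison, an FDR of 0.01, and the adjusted p rose to between 0.0608 and 0.26 when line M41, M40, F11, M3 or M14 was left out. Of the 11320 genes tested, 0.76% were lower at an adjusted p under 0.05 and 0.141% passed the study's threshold in either direction. In bulk RNA, fewer cells that express a gene and less of its RNA per cell cannot be told apart. Sums of some marker lists of differentiated cells were lower in tumoroids, as Cldn23 was, and that of tuft cells was not. The summed level of 11 absorptive colonocyte genes was 34111 to 36528 CP20M in vehicle-treated colonoids and 14209 to 18359 CP20M in tumoroids, and that of 8 goblet cell genes was 1588 to 19638 and 69 to 415 CP20M. Of these lists 4 and 6 genes were tested, and 1 and 4 of them fell at an adjusted p under 0.05. The sum of 6 enteroendocrine genes was 487 to 3770 CP20M in colonoids and 131 to 329 CP20M in tumoroids. That of 4 tuft cell genes was 94 to 649 and 157 to 1631 CP20M, which overlap. The part of these marker genes in the Cldn23 result was not tested.

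Most of the other members were also lower in tumoroids, without passing the test. Vehicle levels of Cldn3, Cldn7 and Ocln did not overlap between genotypes either, so that 3 of the 8 tested members other than Cldn23 were lower in every tumoroid line than in any colonoid line, against 10.7% of all genes tested. Cldn3 was at 8464, 9331 and 8105 CP20M in colonoids (M41, M40, M1) and at 4216, 5662 and 6305 CP20M in tumoroids (F11, M3, M14), which gave -0.69 on the log2 scale (SE 0.252, adjusted p = 0.193). Ocln was at 3008, 4158 and 3572 CP20M against 1648, 2277 and 2377 CP20M, which gave -0.77 (SE 0.340, adjusted p = 0.297). Without the M41 library at R4, which enters this comparison through the estimate of the spread and the choice of genes tested, Ocln reached an adjusted p of 0.0411, when 3.31% of all genes were lower at an adjusted p under 0.05. Cldn7 and Cldn4 had log2 fold changes of -0.44 (adjusted p = 0.27) and -1.04 (adjusted p = 0.233), and those of F11r and Tjp1 were -0.22 and 0.38. Cldn2 did not separate, at 522, 765 and 689 CP20M in colonoids and 695, 707 and 928 CP20M in tumoroids (log2 fold change 0.24, 95% confidence interval -1.07 to 1.54). The median log2 fold change of the 9 tested members was -0.44, and that of all genes was 0.05.

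The second question was what regorafenib does to the junction genes over both genotypes. Cldn7 and Ocln fell, in 6 of 6 lines each. Cldn7 went in colonoids from 9566, 9118 and 8745 CP20M in vehicle (M41, M40, M1) to 8194, 6728 and 5317 at R4 and 3884, 4158 and 4891 at R8. In tumoroids it went from 6675, 6494 and 7053 CP20M (F11, M3, M14) to 4722, 6537 and 5734 at R4 and 3113, 4568 and 4166 at R8. At R8 no library of either genotype overlapped the vehicle libraries of its genotype, and line M3 was level with its vehicle at R4. The mean change of both doses was -0.65 on the log2 scale (SE 0.113, limma adjusted p = 0.000749, 0.638-fold). Cldn7 was the 1 member past the study's threshold (FDR 0.001 and a 1.5-fold change), which 2.16% of all genes passed in the lower direction. That call was lost with TMM or median-of-ratios scaling, without a minimum level, in edgeR, with the line as a block and without any 1 of the 6 lines, where the adjusted p lay between 0.001 and 0.0104.

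Ocln went in colonoids from 3008, 4158 and 3572 CP20M in vehicle to 898, 3176 and 2173 at R4 and 1464, 1616 and 1213 at R8. The value of 898 is that of the library with the fewest reads. In tumoroids Ocln went from 1648, 2277 and 2377 CP20M to 1278, 2050 and 1910 at R4 and 808, 1106 and 987 at R8. At R8 it was lower than every vehicle library of the same genotype. The log2 fold change over both doses was -0.90 (SE 0.208, adjusted p = 0.00504, 0.534-fold).

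With the line as a block, which compares each line with its own vehicle, Cldn7 had an adjusted p of 0.00106 and so just missed the study's FDR, while Ocln had 0.00151. The block brought Cldn2 (log2 fold change -0.86, adjusted p = 0.103 without and 0.0153 with it), Cldn23 (-0.77, 0.0554 and 0.00997) and Cldn3 (-0.33, 0.129 and 0.0326) under 0.05, so that 5 of 9 tested members were lower at an adjusted p under 0.05 in place of 2. Over all genes 15.3% fell at an adjusted p under 0.05 without the block and 17.7% with it. Cldn23 was tested only through colonoid libraries in vehicle or at R4, so its part in these counts describes its level. Without the M41 library at R4 the count was 4 (Cldn3, Cldn7, Cldn23 and Ocln) against 23.5% of all genes, and both Cldn7 (adjusted p = 0.000104) and Ocln (0.000427) passed the study's threshold, which 4.25% of all genes then passed in the lower direction. The count of members lower in 6 of 6 lines, 2 of 9, was near the background of 20.2% of all genes.

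The membrane partner F11r and the scaffold Tjp1 did not pass the test. F11r was at 7977 to 8806 CP20M in vehicle-treated colonoids and at 7466 to 8461 CP20M at R8, which overlap, and its log2 fold change over both doses and genotypes was -0.20 (95% confidence interval -0.48 to 0.08, adjusted p = 0.29). Tjp1 had a log2 fold change of -0.26 (95% confidence interval -0.60 to 0.08, adjusted p = 0.242). Both were lowest in the shallow M41 library at R4, with 3902 CP20M for F11r and 4175 for Tjp1, and without that library the log2 fold changes were -0.12 and -0.18. Both intervals include the value of -0.33 found for Cldn3.

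Cldn4 did not pass the test over both doses. Its log2 fold change was 0.26 (SE 0.249, adjusted p = 0.481). At R4 it was higher than in vehicle in 5 of 6 lines and at R8 in 2 of 6, as described with the doses. The median over the 9 tested members was -0.33 and that of all genes -0.10.

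Within genotypes, 3 members fell in colonoids at an adjusted p under 0.05, against 9.2% of all genes, and none passed the study's threshold, against 1.46% in either direction. In tumoroids no member had an adjusted p under 0.05 in limma, against 7.69% of all genes in either direction, while Cldn2, Cldn7 and Ocln had an unadjusted p under 0.05, against 22.1% of all genes, and Ocln an adjusted p under 0.05 in DESeq2, against 18.3%. The 3 members that fell in colonoids were Cldn7 (log2 fold change -0.77, SE 0.160, adjusted p = 0.00512), Ocln (-1.12, SE 0.295, adjusted p = 0.0187) and Cldn23 (-1.40, SE 0.398, adjusted p = 0.0274), which was tested through its vehicle and R4 libraries alone. The Cldn23 call was lost without line M41, M40 or M1, that of Cldn7 without line M40 and that of Ocln without line M1, with adjusted p values from 0.0565 to 0.135. In tumoroids Cldn7 was at -0.52 (adjusted p = 0.0585), Ocln at -0.69 (0.18) and Cldn2 at -1.24 (0.178). With the block Cldn7 and Cldn2 reached 0.0473 and 0.0315 in tumoroids, against 4.82% of all genes that fell, and without the M41 library at R4, which is no tumoroid library and acts through the common estimate of the spread, Cldn7 and Ocln reached 0.0155 and 0.0188, against 10.9%.

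The difference between genotypes in the response did not pass the test for any of the 9 tested members (adjusted p = 1 each), and 0.00883% of all genes passed it. At an unadjusted p under 0.05 there was 1 member, Cldn23 (limma difference 1.27, 95% confidence interval 0.07 to 2.47, adjusted p = 1), against 349 of the 11320 genes tested. It fell in 3 of 3 colonoid lines, with log2 changes of -1.31, -1.72 and -1.17 in M41, M40 and M1. In tumoroids its changes were -0.56 in F11, 0.74 in M3 and -0.58 in M14, at levels where 2 of the 3 vehicle libraries were under 60 CP20M. The other 8 had confidence intervals of the difference that include 0, such as -0.23 to 0.73 for Cldn7. On the authors' scaling the median of all genes in colonoids was -0.14, and with median-of-ratios factors it was -0.03. With TMM factors, another scaling of the libraries, the colonoid changes of Cldn7, Ocln and Cldn23 were -0.66, -1.01 and -1.29.

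Expression of Cldn1 and Cldn15 differed between single lines. Cldn1, a barrier claudin that is low in healthy colon, was at 545 CP20M in line M41 and 263 CP20M in line M40 at R8, against 19 CP20M in line M1 and 9 to 14 CP20M in the tumoroid lines at that dose. In the other 22 libraries it did not exceed 24 CP20M. The log2 fold change of R8 against R4 was 1.35 (SE 0.556, adjusted p = 0.27), and it rests on those 2 libraries. Cldn15 was highest in line F11, at 158 CP20M in vehicle and 99 CP20M with 5-FU, against 15 and 8 CP20M at R4 and R8. In lines M41 and M40 it was at 46 and 50 CP20M in vehicle and at 0 to 5 CP20M with regorafenib. In lines M1, M3 and M14 it was at 10 CP20M or less throughout, and it was too low to be tested.

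**Figure D2:**
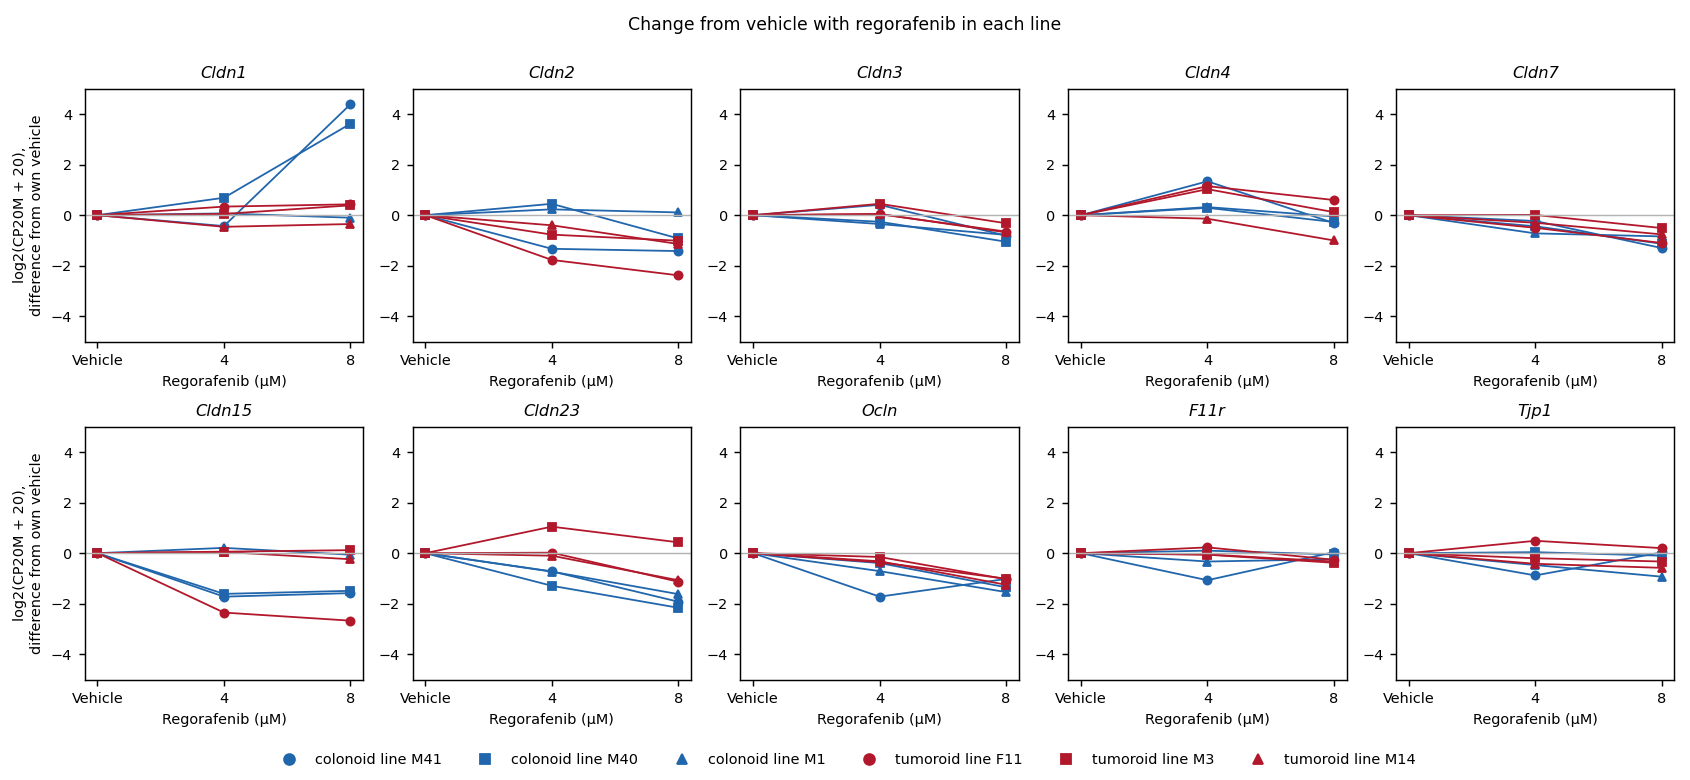
Each panel plots the change of 1 gene from its own vehicle library, as a difference of log2(CP20M + 20), at 4 and 8 µM regorafenib, with 1 connected series per line (colonoids blue, tumoroids red). Cldn2, Cldn3, Cldn4, Cldn7 and Cldn23 are lower at 8 than at 4 µM in 6 of 6 lines, and high Cldn1 values at 8 µM are those of lines M41 and M40.

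The third question was whether the dose mattered. From R4 to R8, 5 of the 9 tested members were lower in 6 of 6 lines, against 6.07% of all genes. These were Cldn2, Cldn3, Cldn4, Cldn7 and Cldn23. The last was tested only through colonoid libraries in vehicle or at R4, where it is high. Its part in the counts of the dose comparison is a description of its level. Ocln was lower in 5 of 6 lines, the exception being line M41, whose R4 library is the shallow one. The median log2 change of the 9 members was -0.58 and that of all genes 0.11. In limma no member passed an adjusted p of 0.05, as against 0.512% of all genes in either direction. An unadjusted p under 0.05 was reached by Cldn3, Cldn4, Cldn7, Cldn23 and Ocln, 5 of the 8 members other than Cldn1, with lower values at R8, against 1728 of the 11320 genes in either direction. In DESeq2 on the recovered reads 4 of these 8, Cldn3, Cldn4, Cldn7 and Ocln, had an adjusted p under 0.05, against 4.46% of all genes. Cldn1 was under 0.05 by both measures with higher values at R8, but it was tested only through 2 libraries at R8. With the line as a block Cldn3 (adjusted p = 0.0136), Cldn7 (0.0408) and Cldn23 (0.0489) passed, 3 of 9 against 1.03% of all genes that fell. Without the M41 library at R4, Cldn7 (0.0457) and Ocln (0.0212) passed, against 1.14%. On the authors' scaling the median dose change of all genes was 0.11 and with TMM factors it was 0.02, so changes from R4 to R8 lie about that much lower with TMM factors.

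Cldn3 was at 11276, 7785 and 6377 CP20M at R4 in colonoids (M41, M40, M1) and at 4825, 4479 and 4712 CP20M at R8. In tumoroids it was at 4326, 7739 and 6546 CP20M at R4 (F11, M3, M14) and at 2689, 4512 and 3947 CP20M at R8. Its R8 values in colonoids lay below all R4 and vehicle values, with a log2 change from R4 to R8 of -0.77 (SE 0.178, adjusted p = 0.0671). From vehicle to R4 it was higher in 4 lines and lower in 2, and at R8 it was below vehicle in 6 of 6 lines. Cldn7 and Ocln were as well, so that 3 of the 9 tested members were, against 17.9% of all genes.

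Cldn4, which tightens the barrier, was higher at R4 than in vehicle and at R8 in most lines. In colonoids it was at 25902, 26060 and 22898 CP20M in vehicle, 65315, 31892 and 28418 at R4 and 20866, 21662 and 22115 at R8. In tumoroids it was at 5969, 12260 and 24275 CP20M in vehicle, 13274, 25059 and 22008 at R4 and 9092, 13263 and 12142 at R8. The 65315 CP20M come from the shallow M41 library. The log2 change from R4 to R8 was -0.81 (SE 0.288, adjusted p = 0.209) and -0.63 (adjusted p = 0.239) without that library. Line M14, which had the highest vehicle level among tumoroids, was the 1 line with a lower level at R4 than in vehicle.

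For Cldn7 the change from R4 to R8 was -0.58 (SE 0.130, adjusted p = 0.0632) and for Cldn23 it was -0.95 (SE 0.325, adjusted p = 0.198). Tjp1 and F11r had changes of -0.04 and -0.00 with 95% confidence intervals of -0.44 to 0.35 and -0.33 to 0.32. Both values depend on line M41, whose R4 library is the shallow one and whose changes were 0.91 and 1.11. In the other lines the changes were -0.45 to -0.13 for Tjp1 and -0.49 to 0.09 for F11r. The dose comparison went with Cd68, a lysosomal gene used as a macrophage marker, which rose by 2.47 on the log2 scale (adjusted p = 0.0391), while the leukocyte gene Ptprc did not exceed 7 CP20M in any library. The sum of the 4 immune markers was 67 to 465 CP20M at R4 and 216 to 2661 CP20M at R8. Their part in the dose comparison was not tested.

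**Figure D3:**
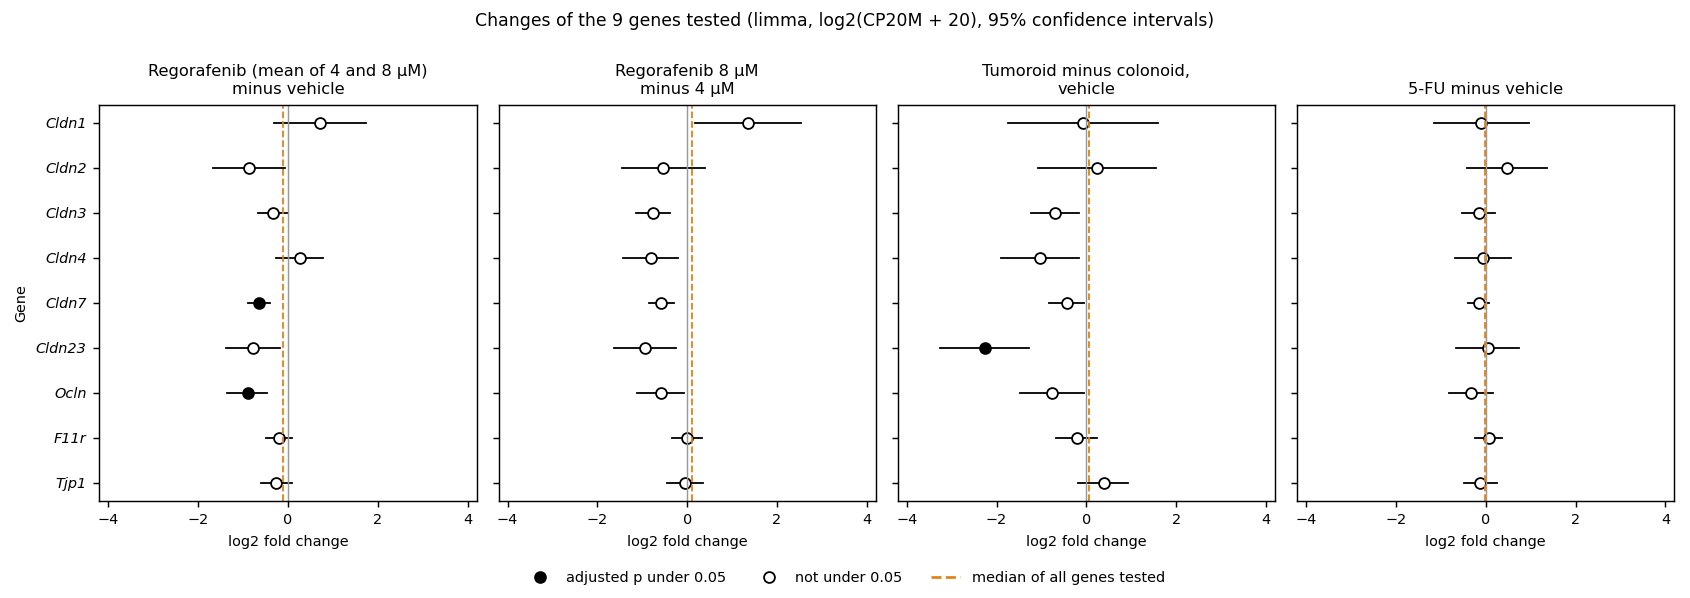
Points are log2 fold changes of the 9 tested members in 4 comparisons, bars are 95% confidence intervals from limma, filled points have an adjusted p under 0.05 and the dashed line is the median of all genes tested. Cldn7 and Ocln lie left of 0 with regorafenib, Cldn23 lies at -2.27 in tumoroids against colonoids, and no member is filled for the dose or for 5-FU.

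The shares of the 3 main claudins separated vehicle from regorafenib in colonoids and not in tumoroids. The table holds 35 claudin genes, and Cldn4, Cldn3 and Cldn7 made up nearly all of their summed level per length. In vehicle-treated colonoids Cldn4 gave 52.4 ± 0.818% (SD, n = 3 lines), Cldn3 26.2 ± 0.944% and Cldn7 17.9 ± 0.778% of it. At R8 these shares were 64.4 ± 0.732%, 20.1 ± 1.07% and 12 ± 1.05%, and none of the 3 overlapped its vehicle range. With 5-FU Cldn4 gave 53.4 ± 2.78% and Cldn7 17.9 ± 1.79%, which overlap their vehicle ranges. In tumoroids Cldn4 gave 44.3% in vehicle, from 30.3% in line F11 to 58.6% in line M14, and 53.8 ± 0.788% at R8, from 53.2% to 54.7% and so within the vehicle range. The summed claudin level was 1310 ± 80.9 CPM per kb in vehicle-treated colonoids and 922 ± 29.5 at R8, and 817 ± 303 and 589 ± 118 CPM per kb in tumoroids. At R4 its mean was not lower than in vehicle, at 1700 ± 683 CPM per kb in colonoids, the shallow M41 library included, and 976 ± 261 in tumoroids. These shares are a description and were not tested.

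**Figure D4:**
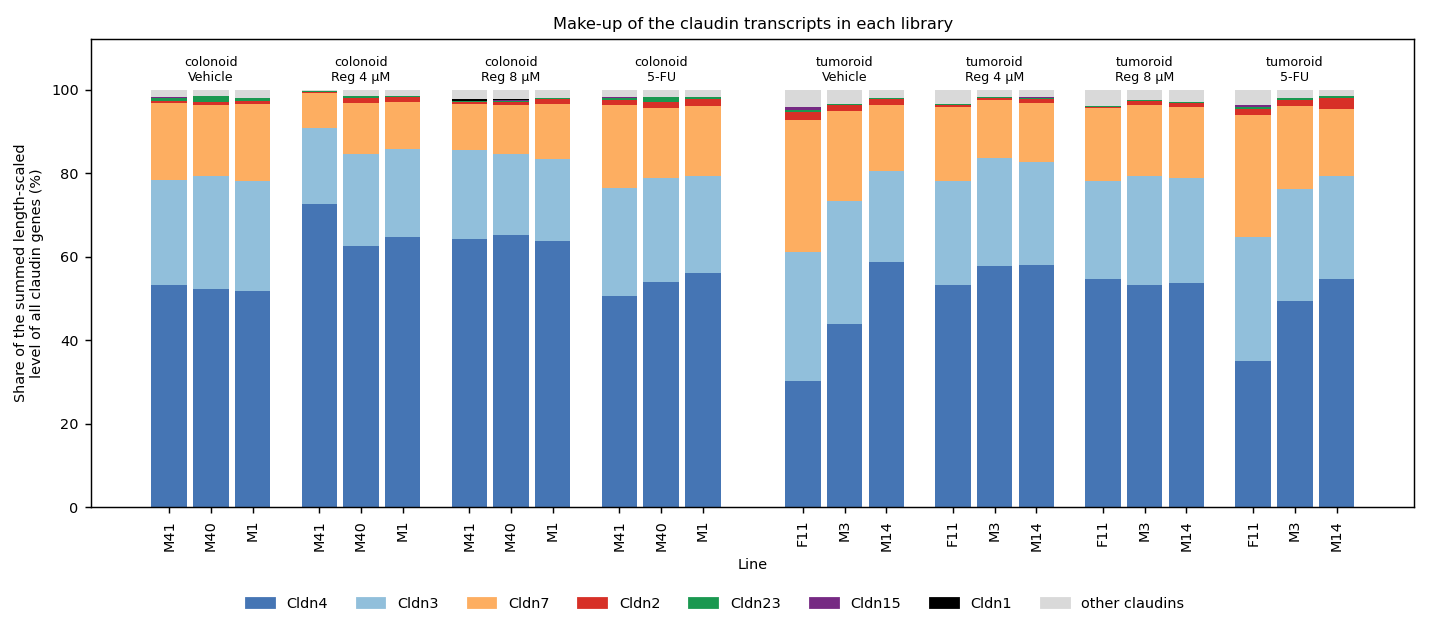
Each bar is 1 library and shows how the summed level of the 35 claudin genes, per length, divides among the 7 claudins of the set and all others (grey), as a percentage. Cldn4 holds 51.7% to 53.3% in vehicle-treated colonoids and 63.8% to 65.2% at 8 µM regorafenib, and 30.3% to 58.6% in vehicle-treated tumoroids.

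The response to 5-FU was compared next, as the second drug of the study. No member passed an adjusted p of 0.05 in limma over both genotypes, against 3.08% of the 11562 genes tested in the 24 libraries. At an unadjusted p under 0.05 there were 0 of the 9, against 1817 of the 11562 genes. Cldn2, the pore-forming claudin, was at 626, 1215 and 1136 CP20M with 5-FU in colonoids against 522, 765 and 689 CP20M in vehicle. In tumoroids it was at 599, 927 and 1905 CP20M against 695, 707 and 928 CP20M. It was higher in 5 of 6 lines, with a log2 fold change of 0.47 (95% confidence interval -0.42 to 1.36, adjusted p = 0.693). Cldn7 changed by -0.16 (-0.40 to 0.08) and Ocln by -0.32 (-0.81 to 0.16). Without the M41 library at R4 and with the line as a block, Ocln reached an adjusted p of 0.0292, when 9.01% of all genes were lower at an adjusted p under 0.05. No member passed in colonoids or in tumoroids alone, against 0.0432% and 0.182% of all genes. The response to 5-FU did not differ between genotypes at an adjusted p under 0.05 for any member, and for 0.0% of all genes.

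Regorafenib and 5-FU, which were given at different doses, were set against each other at the 6-day end point. Cldn2 was lower with regorafenib than with 5-FU in 6 of 6 lines. It was at 196, 1054 and 811 CP20M at R4 and 182, 396 and 746 CP20M at R8 in colonoids, and at 189, 409 and 698 CP20M and 117, 342 and 410 CP20M in tumoroids. The log2 difference was -1.33 (SE 0.368, limma adjusted p = 0.0255, 0.398-fold). Cldn7 was also lower in 6 of 6 lines, by 0.49 on the log2 scale (log2 difference -0.49, SE 0.101, adjusted p = 0.00409). In all 4 members, Cldn2, Cldn7, Ocln and F11r, were lower in 6 of 6 lines, against 15.4% of all genes, and 2 of 9 had an adjusted p under 0.05, against 6.49% of all genes that were lower. By an FDR of 0.05 and a 1.5-fold change, a threshold set here for this comparison, Cldn2 passed, as did 4.25% of all genes in the lower direction. With the block there were 4 (Cldn2, Cldn7, Cldn23 and Ocln), against 11.9%. Of these, Cldn23 was tested only through colonoid libraries. The adjusted p of Cldn2 lay between 0.0511 and 0.0827 when line M40, M1, F11, M3 or M14 was left out.

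Of 55 other tight junction genes, 35 were tested with regorafenib over both genotypes. At an adjusted p under 0.05, 6 rose and 6 fell, against 11.2% of all genes that rose and 15.3% that fell. Of the 6 that rose, Pard6g, Jam2 and Mylk reached 200 CP20M under regorafenib only, among the libraries of this fit, and so were tested through the group where they are high. The members that rose included Amotl1, an angiomotin family scaffold, Pard6g, a subunit of the Par polarity complex, and Jam2, an adhesion molecule related to F11r. The members that fell included the scaffold Tjp3 (ZO-3) and the polarity subunit Pard6b. With TMM factors 8 rose and 3 fell, and without the M41 library at R4 9 rose and 8 fell. The median change of the 35 was -0.11.

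Amotl1 was at 703 to 907 CP20M in vehicle-treated colonoids and 1755 to 2529 CP20M at R8, and at 1252 to 3219 and 4893 to 6114 CP20M in tumoroids (limma log2 difference 1.41, SE 0.170, adjusted p = 4.26e-05). Pard6g rose from 18 to 31 CP20M to 168 to 271 CP20M at R8 in colonoids and from 23 to 74 to 215 to 530 CP20M in tumoroids (limma log2 difference 2.07, SE 0.285, adjusted p = 0.000122). In both genotypes the vehicle and R8 ranges of these genes did not overlap. Pard6b fell meanwhile, from 4756 to 4958 CP20M to 2109 to 2328 CP20M at R8 in colonoids (log2 fold change -0.81, SE 0.131, adjusted p = 0.000423). Jam2 was at 36 to 117 CP20M in the 6 vehicle libraries and at 276 to 1094 CP20M at R8, and it was listed at 0 in the shallow M41 library at R4 (log2 fold change 2.36, SE 0.587, adjusted p = 0.00807). Tjp3 went from 3357 to 4205 CP20M to 1113 to 1721 CP20M at R8 in colonoids (log2 fold change -0.93, SE 0.136, adjusted p = 0.000208). Thus Tjp3 lay outside its vehicle range in colonoids, while Tjp1, of the same scaffold family, did not pass the test.

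The remaining genes past an adjusted p of 0.05 were Cgnl1 (paracingulin, log2 fold change 0.76, adjusted p = 0.000535), Mylk (myosin light chain kinase, 1.78, adjusted p = 0.00263) and Pard3 (a polarity scaffold, 0.30, adjusted p = 0.0395), which rose. Tjap1 (-0.37, adjusted p = 0.00593), Marveld3 (-0.37, 0.0206), Crb3 (-0.41, 0.0212) and Lsr (-0.34, 0.0324) fell. Of the 35 genes tested, 3 that rose (Amotl1, Pard6g and Cgnl1) and 2 that fell (Tjp3 and Pard6b) passed the study's threshold, as did 4.97% of all genes in either direction. Pard6g was tested only through regorafenib libraries, where it is high. In the genotype comparison Amotl1 was higher in tumoroids (log2 fold change 1.42, adjusted p = 0.0227), against 0.636% of all genes, but no gene of the list passed without line M40, M3 or M14 or in the 6 vehicle libraries alone. With 5-FU Amotl1 (1.15, adjusted p = 0.00439) and Pard6g (1.47, adjusted p = 0.0179) rose, against 3.08% of all genes in either direction. No gene of the list passed without line M1 or M3. Pard6g was below the minimum level in all 6 vehicle libraries. It was thus tested only through drug-treated libraries, where it is high, and its 5-FU result describes its level. Between R4 and R8 none of the 35 passed an adjusted p of 0.05 and their median change was 0, against -0.58 for the 9 members, a difference that was not tested.

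**Figure D5:**
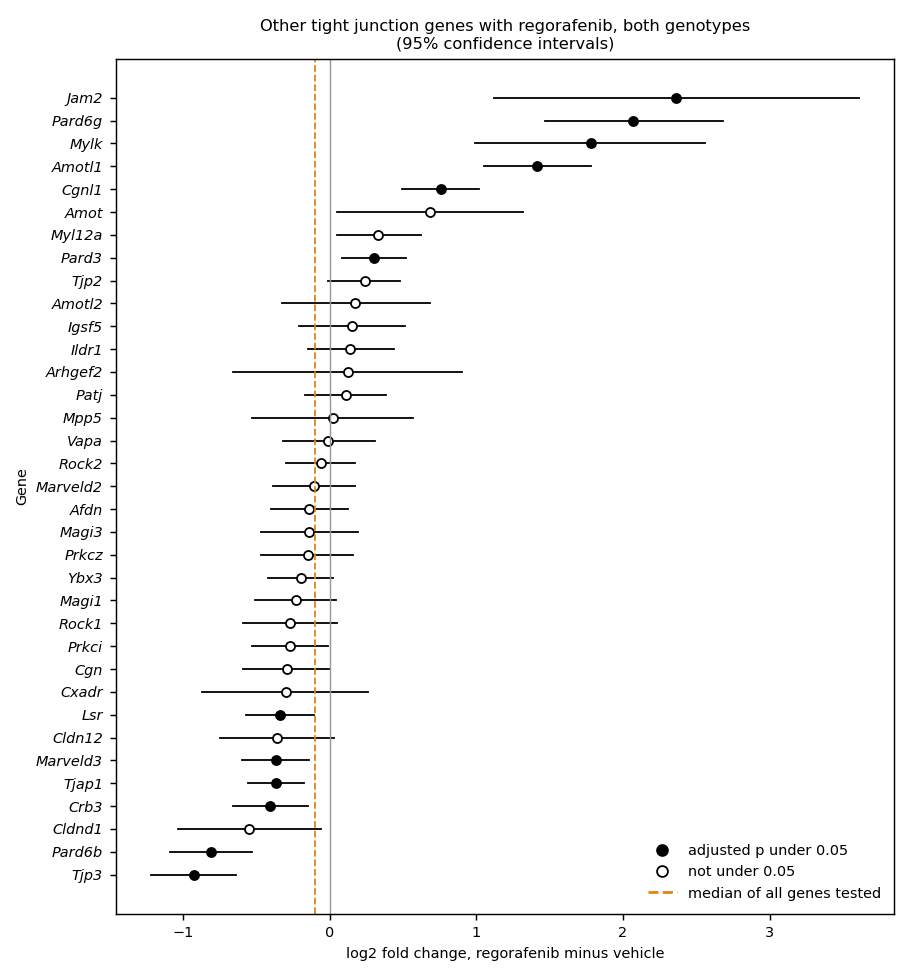
Log2 fold changes of the 35 tested genes of other tight junction proteins with regorafenib over both genotypes, with 95% confidence intervals, filled where the adjusted p is under 0.05. Amotl1, Pard6g, Mylk and Jam2 lie above 1, and Tjp3 and Pard6b are the lowest at -0.93 and -0.81.

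Genes of other junctions were compared in the same way. Of 16 such genes 15 were tested, 2 rose and 2 fell with regorafenib at an adjusted p under 0.05, near the shares of all genes given above, and none passed the study's threshold. Gja1 (connexin 43, log2 fold change 0.84, adjusted p = 0.00637) and Jup (plakoglobin, 0.45, adjusted p = 0.0405) rose, while Gjb2 (connexin 26, -1.26, adjusted p = 0.0292) and Dsg2 (desmoglein 2, -0.60, adjusted p = 0.0167) fell. These 4 are named because so few passed, after their values were seen. Some markers of differentiated cells were lower beside Cldn7 and Ocln and others were not. The intestinal transcription factor Cdx2 fell (log2 fold change -1.89, adjusted p = 0.000292). The summed absorptive colonocyte list was at 14209 to 36528 CP20M in the 6 vehicle libraries and 1646 to 5340 CP20M at R8, and 3 of its 4 tested genes fell. The sum of the 8 goblet cell genes was 1588 to 19638 CP20M in colonoid vehicle libraries and 68 to 202 CP20M at R8, but 69 to 415 and 73 to 230 CP20M in tumoroids, which overlap. The sum of 6 enteroendocrine genes was higher at R8, at 1004 to 9603 CP20M (median 2561) against 131 to 3770 CP20M (median 408) in vehicle. High values of this sum are mostly those of 1 gene, Cpe, at 124 to 10612 CP20M over the 24 libraries. No other gene of the list exceeded 562 CP20M, and the paper names Chga, which is on it, among the genes lowered by regorafenib. The part of these marker genes in the fall of Cldn7 and Ocln was not tested.

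Over the 24 libraries, which share lines and treatments, the profiles most like each member were found by Pearson correlation of log2(CP20M + 20) among the genes tested. Cldn7 was closest to Zbtb42 (r = 0.94) and Ctdsp2 (0.91), Cldn23 to genes that include Krt20 (0.91), and Ocln to Nipal1 (0.92) and Frmd4b (0.90). Cldn3 was closest to Dusp5 (0.89) and Itpkc (0.88), Cldn4 to Zmynd15 (0.91) and Efnb1 (0.86), and Cldn2 to Gm27517 (0.86) and Xpa (0.82). Tjp1 was closest to Gm45371 (0.92) and Fnbp1 (0.89), F11r to Ifngr1 (0.90) and Snrk (0.84), and Cldn1 to Aak1 (0.89) and Nckap5 (0.82). Without the shallow library these values lay between 0.75 and 0.93. Among the members, Cldn3 and Ocln correlated at 0.63 over 24 libraries and 0.92 over 23 without the shallow library, so that 1 library set the lower value, and Cldn3 and Cldn7 at 0.83 and 0.84. Tjp1 and Cldn3 were at -0.32 and -0.07. These are descriptions of libraries that differ in treatment and line.

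Colon fibroblasts of the series, whose table was scaled separately, gave the levels of the members outside epithelium. In the 4 vehicle libraries Tjp1 was at 2200 to 3189 CP20M and F11r at 338 to 1242 CP20M. Cldn3, Cldn4, Cldn7, Cldn23, Cldn1 and Ocln did not exceed 36 CP20M there. Cldn2 was at 0 in 3 libraries and at 4 CP20M in 1, and Cldn15 was at 17 to 104 CP20M.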

How the data were processed

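The organoid table deposited by the authors gives every gene of the 24 libraries a signal in CP20M. Per the paper and the submitters' processing notes, the authors trimmed reads with Trimmomatic 0.36, aligned them to GRCm38 with STAR 2.5.3a, counted them per Ensembl gene with HTSeq 0.9.1 and scaled each library to 20000000. Values are rounded up, and since genes of all lengths share 1 step within a library they were taken as not divided by length, although the legend says per kilobase. The labels and the paper name different library kits, and the strand setting of the counting is not given in the sources used here. From the step, whole reads were recovered (99.74% to 100.0% of values whole).

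Values were tested as log2(CP20M + 20) with limma 3.58.1 (trend) in R 4.3.3 for genes with at least 200 CP20M in 2 libraries, 11320 in the 18 libraries with vehicle or regorafenib and 11562 in all 24, with Benjamini-Hochberg adjustment over all of them. edgeR 4.0.16 and DESeq2 1.42.0 on recovered reads, TMM and median-of-ratios scaling, other pseudocounts, no minimum level, the line as a block, leaving out each line and leaving out the shallow library were alternatives. Tests were tried on simulated data. Replicates are lines from different mice. Replicates differed by more than counting noise (chi-square per gene at least 13.91 over 24 pairs). Treatments share lines, so the block follows the design. After subtraction of group means, libraries of 1 line correlated at 0.43 on average in the 18 libraries. The mean of -0.21 between lines is set by that subtraction and is no separate measure. Comparisons with vehicle share the vehicle libraries. The precision of a value is set by depth, 1 read being 0.894 to 4.58 CP20M outside the shallow library, and by 3 lines per group.

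The text names all 10 members, the 12 other tight junction genes with the largest regorafenib change among those past an adjusted p of 0.05 in any comparison over both genotypes, and the 2 genes most like each member, of which 1 is not reported here. The members and lists were chosen with earlier results of these data known. Fibroblast libraries, scaled in another table, were used only for levels.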

Additional observations from a re-analysis of the deposited data

Results flagged for a closer look

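Cldn23 and Cldn3 had values of opposite sign with 5-FU in the 2 genotypes, and neither passed the test in either genotype. For Cldn23 the log2 changes were -0.76, -0.5 and -0.48 in colonoid lines M41, M40 and M1 and 0.65, 0.74 and 0.58 in tumoroid lines F11, M3 and M14, a difference of 1.24 (limma interaction, unadjusted p = 0.0764, adjusted p = 1). For Cldn3 they were -0.45, -0.31 and -0.39 against 0.04, 0.05 and 0.11, a difference of 0.45 (adjusted p = 1). Every line of 1 genotype lay on the other side of 0 from every line of the other, and neither difference passed the test. This pattern is the one by which the 2 genes were flagged, and the share of all genes that show it is not given. Cldn23 was tested only through colonoid libraries. In tumoroids it was at 43 to 121 CP20M in vehicle and 85 to 191 CP20M with 5-FU.

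In the 4 fibroblast vehicle libraries Cldn2 was at 0, 0, 0 and 4 CP20M, so that the gap of the highest library over the range of the group was 1, above Dixon's critical value. With 1 read worth 1.56 to 2.39 CP20M in these libraries, 4 CP20M is a few reads, and the ratio is 1 whenever 1 library of 4 is above 0. The usual rate of 1 in 20 groups flagged by chance does not hold for tied zeros.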

How the results depend on the processing

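Counts of members depended on the fit more than their fold changes did. Alternative values were counted for 67 results. These hold Cldn23 alone for the differences between genotypes in the response and for 5-FU within single genotypes, and the tested members for the rest. Among these 1094 values, 1003 kept direction and side of the threshold, 59 newly passed, 17 no longer passed and 15 turned sign, none of the last in a called result. By the fold and FDR thresholds, which are the study's for genotype and regorafenib and an FDR of 0.05 with a 1.5-fold change, set here, for the dose, 5-FU and regorafenib against 5-FU, regorafenib over both genotypes called 1 member, and 0 with TMM or median-of-ratios scaling, no minimum level, edgeR, the block of lines, or any line left out (0 to 0), but 2 without the shallow M41 library at R4, with or without the block. Within colonoids DESeq2 and leaving out the shallow library gave 1 in place of 0, and the latter with the block 2. Within tumoroids that last fit gave 1. For the dose, 0 became 5 with DESeq2, 2 with the block, 1 without the shallow library, 3 with both and 1 with all 24 libraries. Those 5 include Cldn1, which was higher at R8 and was tested only through 2 libraries at that dose. Cldn23, counted for the dose with the block, was tested only through colonoid libraries in vehicle or at R4. For regorafenib against 5-FU, 1 became 0 without a minimum level, 3 with DESeq2, 2 with the block, 2 with the block and without the shallow library, and 0 to 1 without a line. For genotype DESeq2 called 1, which was Cldn23, a gene tested only through colonoid libraries.

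At an adjusted p under 0.05, genotype gave 1, and 2 with DESeq2 or without the shallow library, 0 in the 6 vehicle libraries alone and 0 to 1 without a line. That 1 was Cldn23, which was tested only through colonoid libraries. Regorafenib gave 2, and 5 with the block of lines, 4 without the shallow library and 5 with both. Colonoids gave 3, and 1 to 3 without a line. Tumoroids gave 0, and 1 with DESeq2 or all 24 libraries, 2 with the block, 2 without the shallow library, 3 with both and 0 to 3 without a line. The dose gave 0, and 5 with DESeq2, 3 with the block, 2 without the shallow library, 4 with both and 2 with all 24 libraries. Of the 5 with DESeq2, 4 were lower at R8, and Cldn1 was higher there and tested only through 2 libraries at that dose. Cldn23, counted with the block for regorafenib and for the dose, was tested only through colonoid libraries in vehicle or at R4. 5-FU gave 0, and 1 with both. Regorafenib against 5-FU gave 2, and 1 without a minimum level, 5 with DESeq2, 4 with the block, 5 with both and 1 to 2 without a line. At this threshold the number of all genes in either direction moved as well, of 11320 tested in the main fit (11562 with 5-FU). It ranged from 1 to 964 for genotype (158 as reported), 1670 to 5632 for regorafenib (2997), 739 to 4042 in colonoids (1712) and 157 to 3349 in tumoroids (870). For the dose it ranged from 0 to 584 (58), for 5-FU from 26 to 2399 (356) and for regorafenib against 5-FU from 493 to 3962 (1231). The cause of these moves was not tested. The genotype comparison has no block, since no line has both genotypes.

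Among the 67 results counted, turns of sign were found in values that passed no test. Members outside that count turned sign too, such as Cldn2 in the difference between genotypes with 5-FU (-0.14, and 0.16 without line F11). Without 1 line each, Cldn1 ranged from -0.28 to 0.17 for genotype (positive without M1 or F11), Cldn1 from -0.09 to 0.30, Cldn23 from -0.57 to 0.09 and Tjp1 from -0.38 to 0.04 for regorafenib in tumoroids, Tjp1 from -0.24 to 0.10 and F11r from -0.19 to 0.12 for the dose, and Cldn4 from -0.10 to 0.02 for 5-FU. With a pseudocount of 100 Cldn23 was at -0.05 for 5-FU. Cldn1 could not be tested without line M41 or M40, since it then fell below the minimum level. Over all genes, calls by the same thresholds ranged over the alternatives from 0 to 235 for genotype (16 as reported), 155 to 1535 for regorafenib (563), 1 to 1030 in colonoids (165), 0 to 624 in tumoroids (23), 0 to 318 for the dose (51), 26 to 810 for 5-FU (272), 0 to 402 and 0 to 734 for 5-FU in colonoids (5) and tumoroids (21), and 413 to 1317 for regorafenib against 5-FU (783). Depth limits Cldn1, Cldn15 and Cldn23 most, since in the shallow library 1 read is 39.0 CP20M.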
